A study of Mus musculus with 8 samples.

Results

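The comparison described here sets natural killer (NK) cells after 9 days of culture with interleukin-2 (IL-2) against NK cells after 4 days. The study calls day 4 acute and day 9 chronic activation. The comparison rests on 4 of the 8 arrays of the series, 2 for each day, chosen by their labels. It covers 22180 genes, each named alone by at least 1 transcript cluster of the array and read at its brightest cluster. Of these, 13998 reached the array median on at least 2 of the 8 arrays and were tested.

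The cells came from bone marrow of mice from which T cells had been removed by selection on CD90. Both groups were grown with 1000 IU/mL of IL-2, and the adherent activated cells were collected. The day 9 cultures received IL-2 a second time after day 4. The other 4 arrays hold fresh cells (day 0) and day 9 cells given 7.5 µM of KU55933, an inhibitor of the kinase ATM, from day 4. They entered the fit so that the spread between replicates could be estimated over all 4 groups. The protocol names a vehicle as the alternative to KU55933, but no label states that the untreated day 9 cultures got it. The sources used here give no strain, genotype or age of the mice and do not tie the biological replicates to separate animals or cultures, so the p-values measure only the spread between these arrays.

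The arrays were of the Affymetrix type Mouse Gene 2.0 ST, which read each transcript with many short probes. Values are log2 signals, so a difference of 1 is a 2-fold change. With 2 arrays a group, the number of arrays limits the precision. Array medians, taken over all transcript clusters, lay between 3.66 and 3.92. The replicate arrays of a group correlated across the tested genes, which are not independent, with Pearson's r of 0.995 on day 4 and 0.991 on day 9. Background was taken as any signal under the array median, and a fold change against a group whose mean lies there is a lower bound.

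NK cells are lymphocytes that kill infected or transformed cells by releasing perforin and granzymes. IL-2 makes resting NK cells grow, divide and fill their granules. A cell that divides must copy its DNA in S phase and part its chromosomes in mitosis, and the genes for each step are switched on in waves by factors of the E2F, B-MYB and FOXM1 families. Cells short of amino acids or under stress in the endoplasmic reticulum can answer through the transcription factor ATF4, whose targets import and make amino acids.

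Between day 4 and day 9, 3898 genes changed, which is 27.8% of those tested (limma, Benjamini-Hochberg adjusted p below 0.05). On day 9, 1710 genes (12.2%) were higher and 2188 (15.6%) were lower. A difference of at least 2-fold was found for 468 genes that rose (3.34%) and 772 that fell (5.52%), together 8.86%. Groups whose arrays did not overlap were common, at 67.9% of the genes, so a lack of overlap alone sets no gene apart. The median difference over all tested genes was -0.005. Centring each array on its median over the tested genes moved every difference up by 0.12. Then 4179 genes were called, 2461 higher and 1718 lower, so the share of calls that were higher went from 43.9% to 58.9%. With an array left out, 2223 genes were called without day 4 replicate 1, 2241 without day 4 replicate 2 and 2374 without day 9 replicate 1.

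**Figure D1:**
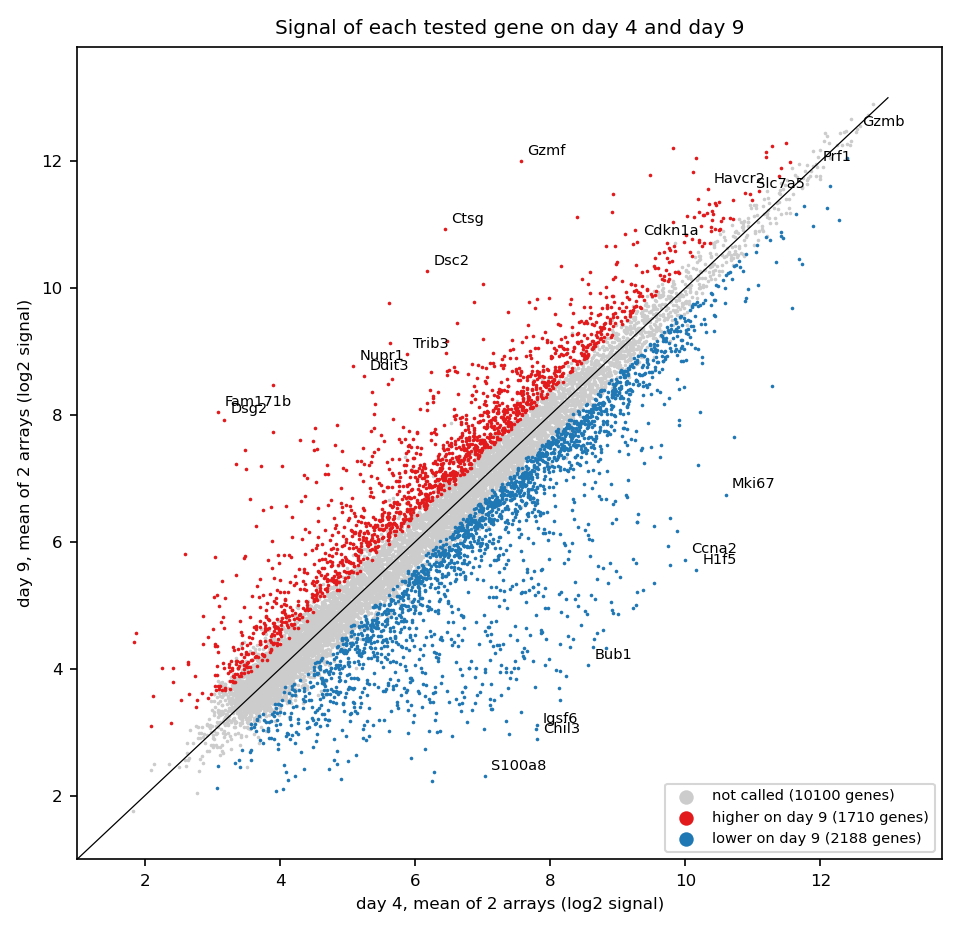
Mean log2 signal of each tested gene on day 4 (horizontal axis) and day 9 (vertical axis). Coloured points are the 1710 genes called higher and the 2188 called lower on day 9, grey points were not called, and labelled genes are described in the text.

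The largest changes were ranked among called genes whose day 4 and day 9 arrays did not overlap. Predicted genes, antigen receptor segments, small RNAs and olfactory or vomeronasal genes were left out. In this ranking the largest rise belonged to Fam171b, which read 3.20 and 2.97 on the day 4 arrays, below the array median. It read 7.98 and 8.12 on the day 9 arrays. That was a difference of 4.97 ± 0.21 (SE), at least 31.3-fold (adjusted p = 3.83e-06). B4galnt2, an enzyme that adds a sugar to cell-surface glycans, read 3.78 and 4.02 on day 4 and 8.58 and 8.37 on day 9. Both genes were low on both day 4 arrays and higher on both day 9 arrays. Il23a, the p19 subunit of the cytokine interleukin-23, went from 4.12 and 3.67 to 7.79 and 7.68, and Efnb2, a ligand of Eph receptors, from 3.83 and 3.13 to 7.46 and 7.42. The other genes among the 15 largest rises were Dsg2, Dsc2, Ctsg, Gzmf, Reep6, Dthd1, Nupr1, Scd3, Dpep2, P2rx3 and Ddit3, with differences from 3.37 for Ddit3 to 4.75 for Dsg2.

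The 15 largest falls, ranked by the same rule, joined genes of dividing cells with genes of other cell types. Depdc1a, Bub1, Nuf2, Ccna2 and Rrm2 work in cell division, and H1f5 and H2bc12 are histones. Chil3, S100a8, S100a9 and Mpeg1 are markers of macrophages or neutrophils, and Cybb is the oxidase subunit of phagocytes. Chil3, a chitinase-like protein, fell most, from 7.88 and 7.73 to 2.87 and 2.92 (difference -4.91 ± 0.16, at least 30.2-fold lower, adjusted p = 2.12e-06). The other genes of this set were Igsf6, Shcbp1 and Thbs1. Of the falling genes, Chil3, Igsf6, S100a8, Depdc1a, Shcbp1 and S100a9 lay below the array median on both day 9 arrays.

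**Figure D2:**
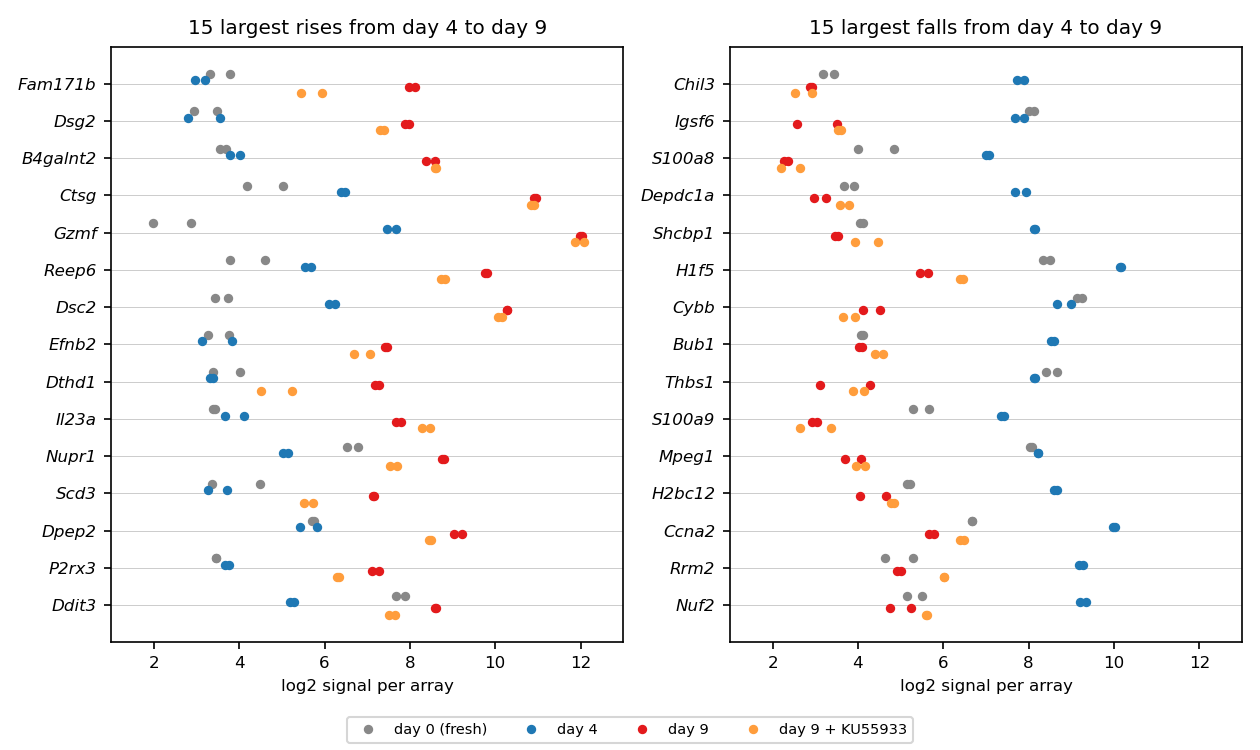
Log2 signal on each array (points, coloured by group) of the 15 genes with the largest rise (left) and the 15 with the largest fall (right) from day 4 to day 9. Only genes whose day 4 and day 9 arrays lie apart could enter this ranking, so their separation here is no result. On the arrays with KU55933, Fam171b (5.45 and 5.95) and Dthd1 (4.51 and 5.24) lie between day 4 and day 9.

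The cell division genes fell almost as a block. Of 71 tested genes of G2, mitosis and cytokinesis, 70 fell, none rose, and 68 fell at least 2-fold. Their median difference was -3.25, or -3.13 after centring, against -0.005 over all genes. With any single array left out, 70 were again lower. In bulk RNA, fewer dividing cells and less RNA of these genes in each cell cannot be told apart. The gene of this group that was not called, Pttg1 (securin), was singled out after its value was seen and differed by 0.10.

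Bub1, a kinase of the spindle checkpoint, read 8.60 and 8.53 on the day 4 arrays and 4.10 and 4.02 on the day 9 arrays, a difference of -4.50 ± 0.11 (22.6-fold lower, adjusted p = 1.21e-06). Fresh cells had read 4.08 and 4.13, so the day 9 arrays lay close to the fresh cells. Plk1, the kinase that drives mitotic entry, read 9.79 and 9.77, then 5.64 and 5.63 (17.6-fold lower, adjusted p = 1.21e-06). Mki67, the Ki-67 antigen of cycling cells, read 10.66 and 10.54, then 6.88 and 6.61 (14.5-fold lower). Kif11 and Kif23, motors of the spindle and of the cell's final cleavage, each fell 18.1- to 18.2-fold. Cenpe, a motor at the kinetochore, fell 17.6-fold, and Nuf2, part of the kinetochore's grip on microtubules, fell 19.2-fold. Top2a, which untangles DNA before chromosomes part, fell, with a difference of -3.70.

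Many promoters of mitotic genes hold a cell cycle homology region, read here as TTTGAA or TTCGAA on either strand, with a CCAAT box upstream of it. The 250 bases before the start site were read for 60 of the 71 genes from RefSeq (GRCm38.p6). The first motif was present in 22 of these 60 promoters (36.7%), against 12.5% of the promoters of all tested genes with a listed sequence. CCAAT was present in 39 (65.0%), against 35.6%. It was not particular to this list, being present in 32 of 48 S phase promoters (66.7%). In the list of ATF4 and serine one-carbon genes, described below, it was present in 16 of 30 (53.3%). The 3 promoters below, chosen because they hold both motifs, are shown 5′ to 3′ on the strand of the gene and end at the base before the start, with the motifs in capitals. A match is a description of letters and not a binding site or a cause. Cdk1, the kinase of mitosis, lies at chr10:69352913-69353162 (minus strand), Depdc1a at chr3:159495183-159495432 (plus strand) and Ccnb2, cyclin B2, at chr9:70421555-70421804 (minus strand).
Cdk1: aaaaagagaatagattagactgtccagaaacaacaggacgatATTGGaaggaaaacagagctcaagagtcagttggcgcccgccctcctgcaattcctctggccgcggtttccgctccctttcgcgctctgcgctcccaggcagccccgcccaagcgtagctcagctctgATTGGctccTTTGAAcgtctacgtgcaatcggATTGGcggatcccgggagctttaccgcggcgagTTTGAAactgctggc
Depdc1a: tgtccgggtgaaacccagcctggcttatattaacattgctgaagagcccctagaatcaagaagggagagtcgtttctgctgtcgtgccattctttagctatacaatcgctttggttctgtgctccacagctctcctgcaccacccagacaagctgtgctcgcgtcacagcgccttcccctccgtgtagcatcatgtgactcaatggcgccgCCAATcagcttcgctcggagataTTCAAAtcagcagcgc
Ccnb2: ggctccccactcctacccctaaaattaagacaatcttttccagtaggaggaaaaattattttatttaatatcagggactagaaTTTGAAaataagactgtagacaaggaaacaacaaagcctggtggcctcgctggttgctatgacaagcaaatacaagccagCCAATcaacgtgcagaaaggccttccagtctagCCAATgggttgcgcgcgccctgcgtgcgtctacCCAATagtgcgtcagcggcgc

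In the Cdk1 and Depdc1a promoters a match to the homology region lies close to the start site and a CCAAT box lies upstream of it. In Ccnb2 the only match to these letters lies 167 bases before the start, upstream of 3 CCAAT boxes. It may be no working element, and bases past the start were not read, so the layout of this promoter was not tested. Cdk1 and Ccnb2 are named here for their promoters, after their values were seen. Cdk1 read 8.84 and 8.96 on the day 4 arrays and 4.94 and 5.15 on the day 9 arrays, 14.5-fold lower (adjusted p = 1.89e-05). Ccnb2 read 9.30 and 9.29, then 5.07 and 5.35, 16.9-fold lower (adjusted p = 5.09e-06). Depdc1a read 7.67 and 7.95, then 3.25 and 2.98, at least 26.0-fold lower (adjusted p = 2.38e-06).

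DNA replication followed the same direction. Of 57 tested genes of S phase and DNA replication, 55 fell and none rose, with a median of -2.05, or -1.94 after centring, and between 50 and 56 fell when an array was left out. Ccna2, cyclin A2, which drives S phase and entry into mitosis, read 10.02 and 9.98 on day 4 and 5.66 and 5.78 on day 9. Its fall of 19.4-fold (-4.28 ± 0.11, adjusted p = 1.21e-06) took it below fresh cells, which had read 6.68 and 6.67. Rrm2 and Rrm1, the subunits of ribonucleotide reductase that makes deoxynucleotides, fell 19.3-fold and 7.89-fold. Mcm5, part of the helicase that opens DNA, read 9.91 and 9.64, then 6.44 and 6.32 (10.5-fold lower). Pole, the catalytic subunit of DNA polymerase epsilon, fell 9.81-fold, and E2f8, a repressor of late E2F targets, fell 18.1-fold. The 2 genes not called, Gins4 (-0.29) and Dut (-0.08), were singled out after their values were seen.

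The E2F motif TTTNNCGC, where N is any base, was present in 12 of the 48 S phase promoters with a sequence, in 9 of the 60 mitotic ones and in 6.73% of all. Replication-dependent histone genes, a list added after the values were seen, gave 17 lower and none higher of 21 tested, with a median of -1.53. Histone genes have near-identical copies that probes may not part. H1f5, a linker histone, read 10.15 and 10.17, then 5.65 and 5.45, 24.4-fold lower.

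Upstream of S phase the picture was mixed. Of 14 G1 cyclins and kinases, 7 fell and 3 rose. Ccne1, cyclin E1, which starts S phase with Cdk2, fell 4.41-fold, and Cdk2 itself fell 3.44-fold. Skp2, which marks the inhibitor p27 for degradation, read 7.24 and 7.28, then 5.22 and 5.25 (4.07-fold lower). Ccnd2, cyclin D2, moved the other way, from 10.27 and 10.36 to 11.15 and 11.22 (1.82-fold higher, adjusted p = 0.00156). Among inhibitors of these kinases, Cdkn2b (p15) rose 3.40-fold, Cdkn1a (p21) 2.73-fold, Cdkn1b (p27) 1.99-fold and Cdkn2a (p16 and p19ARF) 1.76-fold. Lmnb1, lamin B1 of the nuclear envelope, fell from 9.35 and 9.22 to 6.41 and 6.21 (7.88-fold). Rbl1, the retinoblastoma relative p107, fell 2.71-fold. The list of cell cycle inhibitors and senescence-linked genes had 5 higher and 6 lower of 21, without a common direction.

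**Figure D3:**
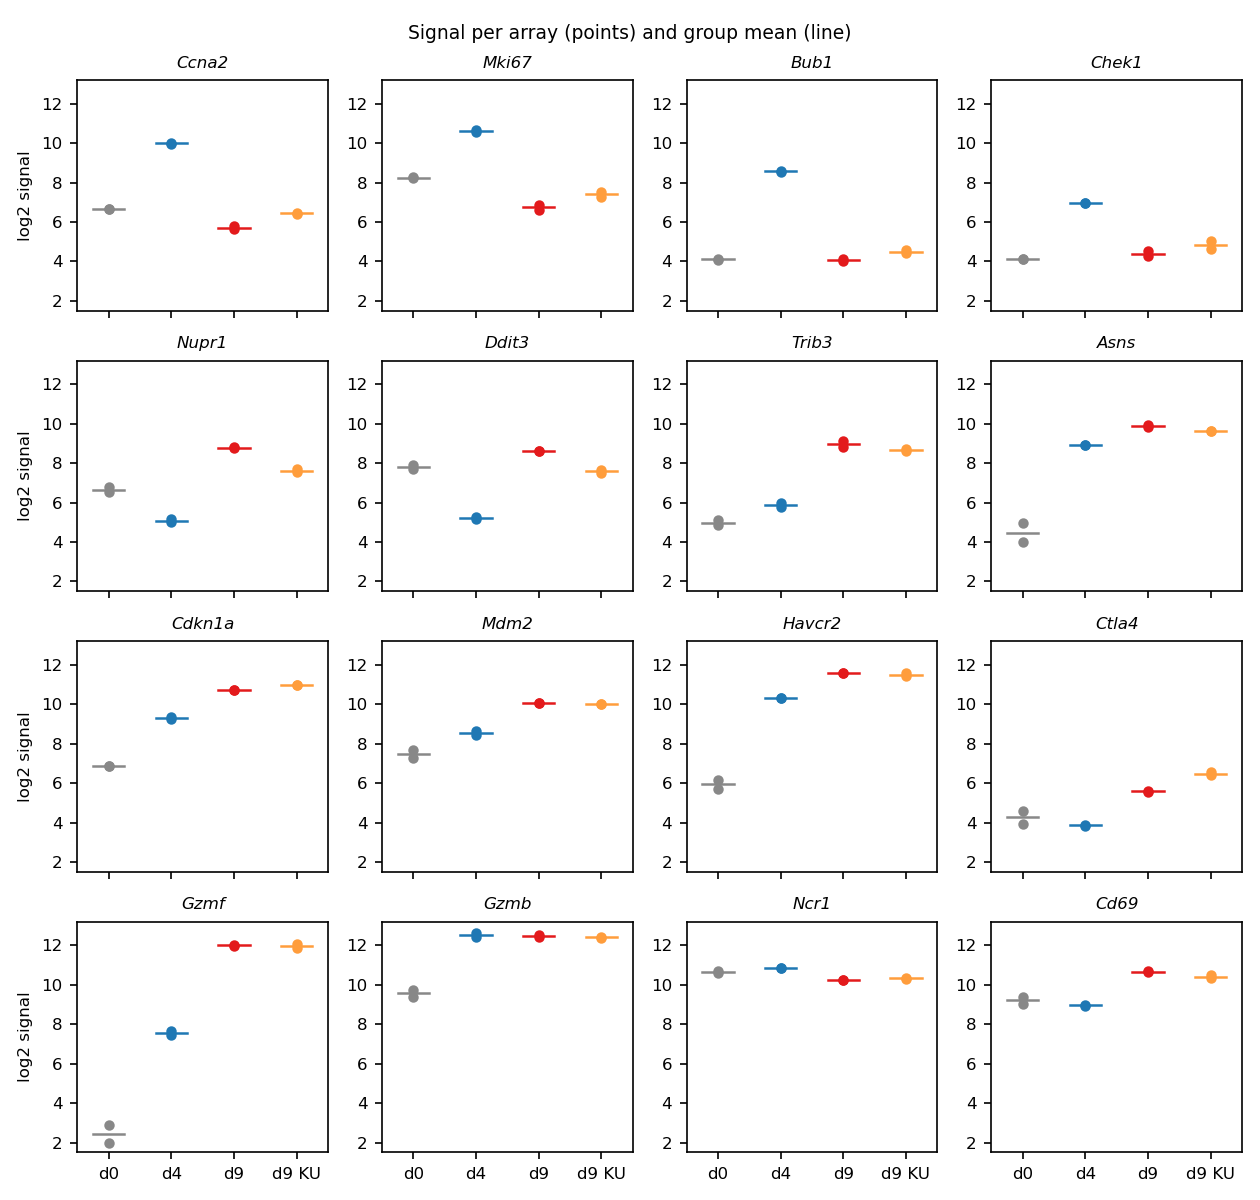
Log2 signal on each array (points) with the group mean (line) for 16 genes in 4 groups, day 0, day 4, day 9 and day 9 with KU55933. Ccna2, Mki67, Bub1 and Chek1 are high on day 4 and low on day 9, while Ddit3, Nupr1, Trib3 and Gzmf are higher on day 9 and the Gzmb arrays of both days overlap.

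Genes that repair broken forks fell with the replication genes. Of 34 tested genes of homologous recombination and the Fanconi pathway, 29 fell and 1 rose (median -1.38, or -1.26 centred), and 24 to 29 fell with an array left out. Fancd2, the hub of the Fanconi pathway, read 7.41 and 7.54, then 4.17 and 4.08 (10.2-fold lower, adjusted p = 4.93e-06). Brip1, a helicase partner of Brca1, fell at least 9.99-fold, Rad54l, a motor of strand exchange, at least 10.7-fold, and Brca1 at least 6.45-fold. The gene that rose, Rad52, by 0.83, was singled out after its value was seen, and its call was lost without day 4 replicate 1 and without day 9 replicate 1. In end joining, excision and mismatch repair, 16 of 44 fell and 4 rose. Without day 4 replicate 1, 10 fell and 2 rose, and without either day 0 array 7 rose. Polq, the polymerase of theta-mediated end joining, fell at least 8.33-fold, Neil3, a glycosylase, 4.87-fold, and Parp1, a break sensor, 2.48-fold.

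Among 30 genes of signalling by ATM and its relative ATR, kinases that answer DNA breaks and stalled forks, 15 fell and 1 rose (median -0.42, or -0.30 centred), with 9 lower without day 4 replicate 1 and none higher without any single day 4, day 9 or KU55933 array. Genes of the replication checkpoint were among them. Chek1, the effector kinase of ATR, read 6.94 and 6.96, then 4.52 and 4.26 (5.88-fold lower, adjusted p = 2.31e-05), and Clspn, its adaptor, fell at least 12.9-fold. H2ax, the histone that marks breaks, fell from 10.69 and 10.76 to 7.61 and 7.71 (8.37-fold). The kinases at the top were not called. Atm read 7.23 and 7.10 on day 4 and 6.74 and 6.76 on day 9 (difference -0.41 ± 0.15, adjusted p = 0.0874), a value that passed the threshold under 4 other settings of the fit, the lowest being 0.0294. Atr differed by -0.26 (adjusted p = 0.106), with 0.0423 and 0.0465 under 2 other settings, and Prkdc, the DNA-PK kinase, by -0.18 (adjusted p = 0.32). Chek2, the effector of ATM, fell 2.27-fold.

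Genes of ribosome production fell by less. Of 46 genes of ribosome biogenesis, 30 fell and 1 rose (none without any single day 4 or day 9 array), with a median of -0.60, or -0.48 centred. The number that fell was 17 without day 4 replicate 1, 19 without day 4 replicate 2 and 18 without day 9 replicate 1. Wdr12 and Nop16, which help build the large subunit, fell 2.23-fold and 2.07-fold, and Polr1b, a subunit of RNA polymerase I, fell 2.02-fold. Of 29 proteasome genes, 17 fell and none rose (median -0.57), and Psmd7, of the regulatory particle, read 9.43 and 9.45, then 8.37 and 8.50 (2.01-fold lower). This count was 4 without day 4 replicate 1, 9 without day 4 replicate 2, 6 without day 9 replicate 1 and 11 without day 9 replicate 2. In the respiratory chain 10 of 46 fell, a share of 21.7% that is near the 27.8% of all genes. That count was 1 without day 4 replicate 1, 4 without day 4 replicate 2, 2 without day 9 replicate 1 and 6 without day 9 replicate 2. Ndufa4, a subunit of the chain, fell from 9.88 and 9.94 to 7.97 and 7.87 (3.98-fold lower), and no other gene of the list was called at 2-fold or more.

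Lipid synthesis genes also fell more often than they rose. Of 27 genes of cholesterol synthesis, of its transcription factor SREBP and of sterol handling, 14 fell and 3 rose. Fewer were called lower without day 4 replicate 2. Pmvk and Dhcr7, enzymes of the pathway, fell 2.58-fold and 2.46-fold, Lss, which closes the sterol rings, 2.24-fold, and Insig1, which holds SREBP back when sterol is plentiful, 2.23-fold. None of the 3 genes that rose is a synthesis enzyme. Of them, Abcg1, which exports cholesterol, rose 4.81-fold (difference 2.27), and Mylip, which degrades the LDL receptor, rose 2.24-fold. Both are textbook targets of the oxysterol receptor LXR. In fatty acid synthesis 9 of 21 fell and 2 rose, with 1 higher without day 4 replicate 2 or without any single day 9 or KU55933 array. Fads2, a desaturase of long fatty acids, read 9.16 and 9.10, then 6.65 and 6.76 (5.38-fold lower), Fads1 fell 3.55-fold, and Fasn, fatty acid synthase, 2.98-fold.

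Glycolysis and hypoxia targets split, with 7 higher and 6 lower of 35 (median -0.03, or 0.08 centred), and 2 lower without day 4 replicate 1, 2 without day 4 replicate 2 and 3 without day 9 replicate 1. Vegfa, the vascular growth factor, read 6.74 and 6.93, then 8.83 and 8.79 (3.93-fold higher). Ero1a, an oxidase of protein folding, rose 3.73-fold, Ndrg1 3.01-fold, and Ddit4, an inhibitor of mTORC1, 2.81-fold. Slc16a1, a lactate transporter, fell 1.70-fold. The others that fell were all genes of glycolysis: Hk2 (-0.53), Pfkfb3 (-0.69), Pgam1 (-0.60), Pkm (-0.59) and Ldha (-0.71). Other glycolysis genes, such as Gapdh (0.01) and Pgk1 (-0.04), were not called. All 7 of these are named after their values were seen. Hif1a, the oxygen-regulated factor, differed by 0.18 (adjusted p = 0.271) and Egln3, the prolyl hydroxylase that marks it, by -0.13 (adjusted p = 0.719).

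Genes of the ATF4 response rose. Of 33 tested ATF4 targets and genes of serine and one-carbon metabolism, 20 rose and 3 fell (median 0.87, or 0.99 centred), and 14 of those that rose did so at least 2-fold. Between 16 and 22 rose with an array left out. Nupr1, a stress-induced nuclear protein, read 5.02 and 5.15 on the day 4 arrays and 8.80 and 8.75 on the day 9 arrays (12.9-fold higher, 3.69 ± 0.13, adjusted p = 2.42e-06). Ddit3 (CHOP), a factor of the stress response, read 5.19 and 5.29, then 8.60 and 8.61 (10.3-fold higher, adjusted p = 2.85e-06). Day 4 was the low point for both, since fresh cells had read 6.53 and 6.78 for Nupr1 and 7.68 and 7.89 for Ddit3.

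Trib3, a pseudokinase that restrains the response, read 5.98 and 5.78, then 8.81 and 9.11 (8.48-fold higher). Cth, which makes cysteine, rose from 3.78 and 4.27 to 7.11 and 7.28 (9.00-fold). Atf5, a relative of ATF4, rose 6.17-fold, Ppp1r15a (GADD34), which restores translation, 5.28-fold, and Sesn2, which senses leucine, 3.38-fold. These genes rose on both day 9 arrays with no overlap. Atf4 itself rose 1.47-fold (adjusted p = 0.0127), a call lost without either day 4 or either day 9 array, where the adjusted p reached up to 0.0909. Of the 3 genes that fell, Shmt1 (-2.92), Mthfd1 (-1.64) and Mthfd1l (-1.04), each named after its value was seen, all work in folate metabolism, which also feeds DNA synthesis.

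ATF4 binds an element read here as TGATGNAA on either strand. It was present in 5 of the 30 promoters with a sequence on this list (16.7%), in 4 of the 17 among the genes that rose (23.5%) and in 2.14% of all. These 4 were Asns, Chac1, Got1 and Nupr1, and 3 of them are shown because their genes rose and hold the element, marked in capitals. Nupr1 lies at chr7:126625471-126625720 (minus strand), Chac1, an enzyme that degrades glutathione, at chr2:119350992-119351241 (plus strand) and Asns, asparagine synthetase, at chr6:7693210-7693459 (minus strand), all in GRCm38.p6.
Nupr1: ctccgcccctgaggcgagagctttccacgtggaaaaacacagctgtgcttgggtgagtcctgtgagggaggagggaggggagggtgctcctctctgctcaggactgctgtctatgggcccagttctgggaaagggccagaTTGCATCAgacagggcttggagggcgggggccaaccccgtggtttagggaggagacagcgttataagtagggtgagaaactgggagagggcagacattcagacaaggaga
Chac1: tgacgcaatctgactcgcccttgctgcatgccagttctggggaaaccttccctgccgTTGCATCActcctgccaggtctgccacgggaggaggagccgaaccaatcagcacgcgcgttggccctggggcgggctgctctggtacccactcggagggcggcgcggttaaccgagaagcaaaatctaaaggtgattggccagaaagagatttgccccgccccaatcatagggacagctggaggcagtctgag
Asns: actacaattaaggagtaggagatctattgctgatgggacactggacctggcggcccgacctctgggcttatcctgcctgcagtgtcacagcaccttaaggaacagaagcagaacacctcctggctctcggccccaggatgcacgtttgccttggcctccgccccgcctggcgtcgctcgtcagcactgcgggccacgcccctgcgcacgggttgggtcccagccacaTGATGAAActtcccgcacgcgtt

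Nupr1 and Chac1 share the letters TTGCATCA, the element read on the other strand, and Asns carries it close to its start. Chac1, named here for its promoter after its values were seen, read 5.94 and 5.77, then 7.59 and 7.66 (3.42-fold higher, adjusted p = 0.000204). Asns read 8.94 and 8.92, then 9.84 and 9.91 (1.93-fold higher, adjusted p = 0.0328). Its adjusted p was above the threshold in 8 other settings, each single day 4, day 9 or KU55933 array left out among them, reaching 0.137.

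Amino acid transport shifted in part. Of 22 transporters, 9 rose and 3 fell. Without day 4 replicate 1, 4 rose, and without either day 0 array 5 fell. Slc7a3, an arginine and lysine carrier, read 4.44 and 4.57, then 7.32 and 7.58 (7.71-fold higher), and Slc1a4, which carries serine and alanine, rose 2.79-fold. Slc3a2, the shared heavy chain of several carriers, rose 1.77-fold. Slc7a8, a carrier of large neutral amino acids, fell from 6.87 and 7.33 to 3.55 and 3.51, at least 11.9-fold. Slc7a5, the main leucine carrier of activated lymphocytes, rose 1.44-fold (adjusted p = 0.0076), with 0.0682 without day 4 replicate 1. Among aminoacyl-tRNA synthetases 4 rose and 3 fell of 18. Wars, for tryptophan, rose 2.33-fold and Sars, for serine, 1.86-fold, while Hars, for histidine, fell 1.68-fold. This list moved by more than 1.5 times when any day 0, day 4 or day 9 array was left out, with 2 to 7 higher and 1 to 5 lower.

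The endoplasmic reticulum list had no common direction, with 5 higher and 7 lower of 31. Ern1, the IRE1 stress sensor, rose 3.27-fold and Dnajb9, a co-chaperone, 2.14-fold, while Sdf2l1, a folding factor, fell from 9.18 and 9.10 to 7.04 and 6.92 (4.49-fold). Sel1l and Derl1, of the route that removes misfolded proteins, rose 1.85-fold and 1.64-fold. Without a single day 4 or day 9 array 4 genes of the list were lower. Lysosome and autophagy genes gave 14 higher and 5 lower of 40 (median 0.33, or 0.45 centred). The number that rose was 9 without day 4 replicate 1 and 7 without day 4 replicate 2 or day 9 replicate 2. The number that fell was 2 or 3 without day 4 replicate 2 or either day 9 array and 8 without either day 0 array. Map1lc3b, the membrane mark of autophagosomes, rose 2.05-fold, Npc1, which moves cholesterol out of lysosomes, 2.17-fold, and Ctsz, a lysosomal protease, fell 1.91-fold.

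Sqstm1 (p62), an autophagy receptor, is on the list of antioxidant and metal genes. Sqstm1 read 9.48 and 9.47, then 11.77 and 11.78 (4.93-fold higher, adjusted p = 4.22e-06), with both day 9 arrays above both day 4 arrays. Osgin1, an oxidative stress gene, rose 3.96-fold, Mt2, a metallothionein that probes may not part from Mt1, 3.30-fold, and Nfe2l1, a factor that drives proteasome genes, 2.78-fold. Gclm, which makes glutathione, and Pgd, which makes NADPH, fell 2.82-fold and 2.40-fold. The list gave 8 higher and 13 lower of 29, and 8 lower without day 9 replicate 1.

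p53 targets rose more often than they fell. Of 33 tested, 13 rose and 3 fell (median 0.43, or 0.55 centred), against 12.2% and 15.6% of all genes, and 10 to 16 rose with an array left out. The number that fell was 1 without either day 4 array or day 9 replicate 1 and 5 without either day 0 array. Cdkn1a (p21), which halts the cycle, read 9.24 and 9.33, then 10.74 and 10.73 (2.73-fold higher, 1.45 ± 0.10, adjusted p = 4.15e-05). Mdm2, which degrades p53, read 8.45 and 8.66, then 10.05 and 10.08 (2.85-fold higher). Trp53inp1 rose 3.86-fold, Bbc3 (PUMA), a killer protein of the BCL2 family, 2.86-fold, and Tnfrsf10b, a death receptor, 2.08-fold. Gtse1, which is made in G2, fell 4.44-fold. On the KU55933 arrays Cdkn1a read 10.96 and 10.96.

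Apoptosis genes had no common direction, with 8 higher and 6 lower of 31. Without day 4 replicate 1, day 4 replicate 2 or day 9 replicate 1 these were 4 and 2. Bcl2l11 (BIM), which promotes death, rose 1.99-fold, and Cflar, which blocks death receptors, rose 1.76-fold. Casp4, an inflammatory caspase, rose 2.20-fold, while Mlkl and Ripk3, of necroptosis, fell 2.46-fold and 1.83-fold. Bcl2, which protects cells, read 10.40 and 10.59, then 10.91 and 10.92 (adjusted p = 0.0385), a call lost in 9 settings with an adjusted p of up to 0.232.

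**Figure D4:**
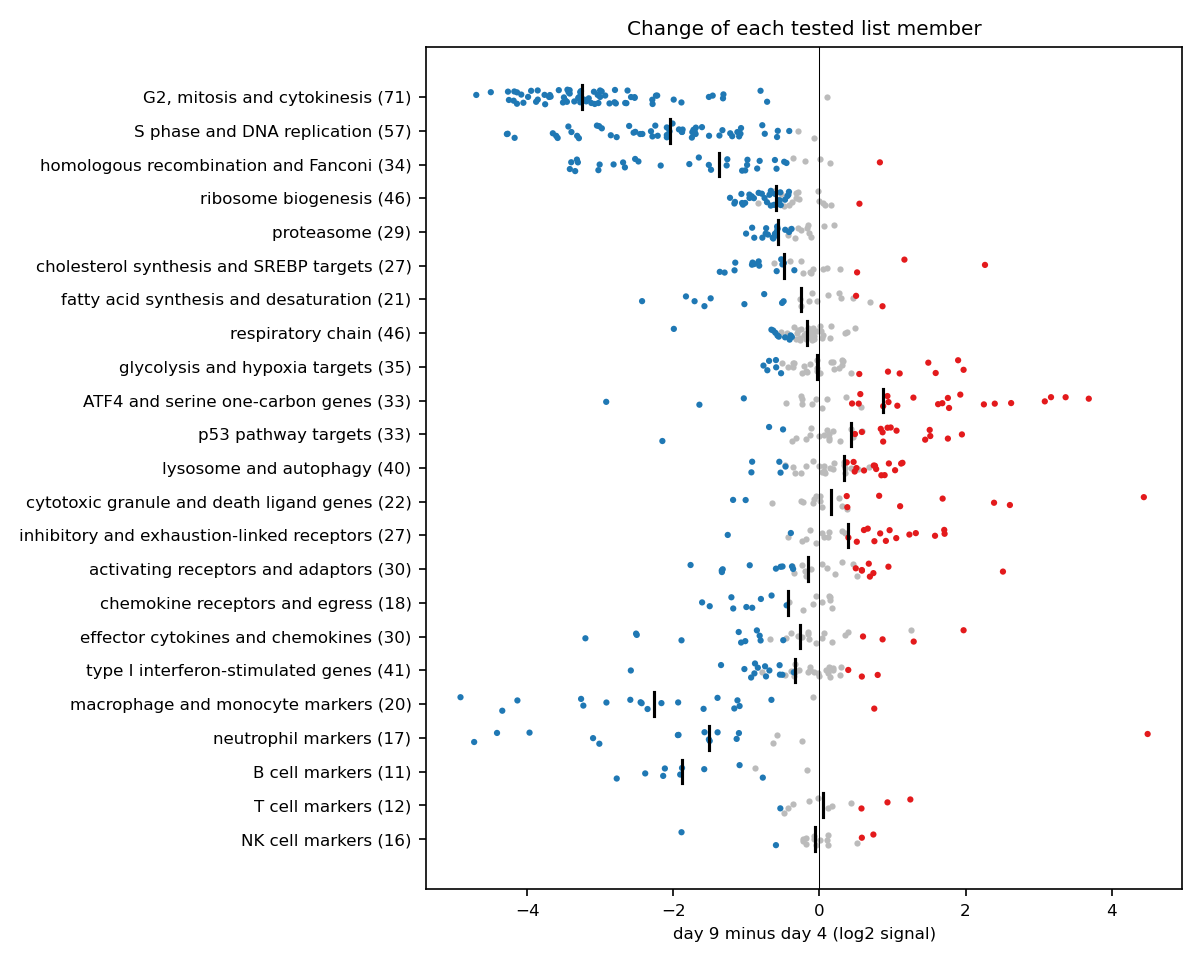
Log2 difference, day 9 minus day 4, of each tested member (points) of 23 gene lists, with the number tested in brackets and the median as a black bar. Red points were called higher, blue points lower and grey points neither, with 70 of 71 mitosis genes lower and 20 of 33 ATF4 genes higher.

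The RNAs of the main killing proteins were not called. Prf1, perforin, read 11.94 and 11.96 on day 4 and 11.91 and 11.90 on day 9 (difference -0.04 ± 0.11, adjusted p = 0.819). Gzmb, granzyme B, read 12.64 and 12.43, then 12.50 and 12.42 (adjusted p = 0.784), and Gzma, granzyme A, 12.05 and 11.94, then 11.80 and 11.74 (adjusted p = 0.171, and 0.0151 with a mean-variance trend). These signals lie close to the highest on the arrays, and saturation was not tested, so the values do not show that the RNAs stayed level. Of the other granzymes, Gzmf, Gzmg and Gzmn rose. Gzmc (difference 0.27, adjusted p = 0.233), Gzmd (0.37, adjusted p = 0.0874), Gzmk (-0.65, adjusted p = 0.0817) and Gzmm (-0.25, adjusted p = 0.531) were not called, and Gzmc, Gzmd and Gzmm are named after their values were seen. Gzmf read 7.46 and 7.67, then 12.03 and 11.98 (21.7-fold higher, 4.44 ± 0.26, adjusted p = 1.67e-05). Gzmg read 9.75 and 9.89, then 12.24 and 12.18 (5.24-fold higher), and Gzmn 3.48 and 3.81, then 6.33 and 6.18 (at least 6.09-fold higher, its day 4 mean being under the array median). Granzymes C to G and N are close copies of each other, so probes may read more than their own gene.

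Ctsg, cathepsin G, and Cma1, mast cell chymase, are serine proteases of the same chromosomal cluster as granzyme B. Ctsg read 6.38 and 6.49, then 10.90 and 10.96 (22.5-fold higher), and Cma1 read 4.66 and 4.37, then 7.77 and 7.84 (9.78-fold higher). Serpinb1a, an inhibitor of such proteases, rose 3.22-fold. Ctsw, a protease of NK and CD8 T cells, fell from 10.31 and 10.31 to 9.24 and 9.37 (2.02-fold). Over the granule list 8 of 22 rose and 2 fell, with 1 lower without either day 4 array or day 9 replicate 1. In granule exocytosis 5 of 22 rose and 1 fell, 27.3% in all and near the 27.8% of all genes. Without day 4 replicate 2 or either day 9 array 3 rose, without day 4 replicate 2 none fell and without either day 0 array 3 fell. Sytl1, a docking protein, rose 1.73-fold.

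The list of activating receptors and their adaptors split, with 8 higher and 10 lower of 30 (median -0.15, or -0.04 centred). Most that rose were adaptors or a kinase and most that fell were receptors, a division read after the values were seen. Without any single day 4 or day 9 array 6 were lower, and 4 were higher without day 4 replicate 2. Ly9, Slamf6 and Cd2, receptors by which lymphocytes touch each other, fell 3.40-fold, at least 2.52-fold and 2.50-fold. Klrb1f, a lectin-like receptor, read 10.29 and 10.20, then 8.93 and 8.89 (2.53-fold lower). Ncr1 (NKp46), the receptor that marks NK cells, read 10.87 and 10.85, then 10.26 and 10.26 (1.51-fold lower, adjusted p = 0.00422). Klrk1 (NKG2D) differed by -0.19 (adjusted p = 0.249) and Cd226 (DNAM-1) by -0.35 (adjusted p = 0.0513, and 0.0194 to 0.0358 in 5 other settings). Sh2d1b2 (EAT-2B), an adaptor of such receptors, read 6.35 and 6.57, then 9.05 and 8.90 (5.71-fold higher). Klrd1 (CD94) rose 1.67-fold.

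Of 27 genes on the list of inhibitory and exhaustion-linked receptors, 14 rose and 2 fell (median 0.40, or 0.51 centred). The list also holds ligands and adenosine-making enzymes, some of which rose, so these counts are not of receptors alone. Fewer genes were called higher without any single day 4, day 9 or KU55933 array. Without any single day 4, day 9 or KU55933 array 1 fell. Havcr2 (TIM-3) read 10.33 and 10.34, then 11.56 and 11.56 (2.35-fold higher, 1.23 ± 0.15, adjusted p = 0.000848), having read 5.71 and 6.15 in fresh cells. Ctla4 read 3.85 and 3.90, then 5.57 and 5.61 (3.28-fold higher), a rise to a low level. Vsir (VISTA) rose 2.99-fold, Klrg1 1.78-fold, and Nt5e (CD73), which makes adenosine, 3.27-fold. Ptger2, a prostaglandin receptor that restrains lymphocytes, rose 2.50-fold.

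Tigit read 8.47 and 8.37, then 9.55 and 9.39 (2.07-fold higher, adjusted p = 0.0282), a call lost in 7 settings with an adjusted p of up to 0.134. Lag3 went down, from 6.19 and 6.34 to 5.77 and 5.98 (adjusted p = 0.0471), lost in 11 settings with an adjusted p of up to 0.26. Pdcd1 (PD-1) read 3.91 and 4.00, then 3.96 and 4.01 (adjusted p = 0.871). Klrc1 (NKG2A) differed by 0.34 (adjusted p = 0.13, and 0.0345 after centring). Btla fell at least 2.39-fold. Of 5 Klra (Ly49) receptors tested 4 were called higher, and 2 without day 4 replicate 1 or day 9 replicate 2. Klra2 rose 2.61-fold and Klra9 1.84-fold, and Klra genes are close copies that probes may not part.

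Neither of the factors that define NK cells was called. Eomes read 9.78 and 9.79, then 9.49 and 9.62 (adjusted p = 0.255), and Tbx21 (T-bet) differed by -0.18 (adjusted p = 0.444). Of 41 transcription factors 9 rose and 6 fell, and without any single day 4 or day 9 array 2 to 5 rose, with 3 lower without either day 4 array. Bhlhe40 and Prdm1 (BLIMP-1), factors of activated lymphocytes, rose 1.86-fold and 1.72-fold, and Zbtb32 fell 2.13-fold. Tox, linked to exhaustion in T cells, differed by -0.52 (adjusted p = 0.0569), and its adjusted p ranged down to 0.00714 without a day 0 array. Cd69, an early activation marker, rose 3.26-fold, Cd7 2.10-fold and Itga1 (CD49a) 1.67-fold, while Cd27 fell 2.07-fold and Il7r, the interleukin-7 receptor, at least 3.28-fold.

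The chains of the receptor for IL-2 tested here were not called. Il2rb read 11.77 and 11.86, then 11.74 and 11.73 (adjusted p = 0.654), and Il2ra (CD25) 9.06 and 9.21, then 9.19 and 9.23 (adjusted p = 0.681). Cish, a feedback target of STAT5, differed by 0.18 (adjusted p = 0.437). Pim1, a kinase induced by STAT5, rose 1.81-fold, and Ptpn6 (SHP-1), a phosphatase that damps receptor signals, fell 1.78-fold. Il4ra rose 1.96-fold and Il21r 1.66-fold. Over the list of the IL-2 receptor and STAT5 pathway 3 of 23 rose and 4 fell. The share called, 30.4%, was near the 27.8% of all genes. Socs3 (-0.63) and Il15ra (-0.40), the latter named after its value was seen, were among those that fell.

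Cytokine and chemokine genes fell more often than they rose, with 11 lower and 4 higher of 30 (median -0.27, or -0.15 centred). Xcl1, which attracts dendritic cells, read 11.64 and 11.51, then 9.63 and 9.74 (3.70-fold lower, adjusted p = 1.51e-05). Tnf fell 1.76-fold. Ifng, interferon gamma, read 7.70 and 7.78, then 6.81 and 6.95 (1.81-fold lower, adjusted p = 0.00895), with 0.0639 without day 4 replicate 2 and 0.0595 without day 9 replicate 1. Cxcl9 and Cxcl10, chemokines induced by interferon gamma, fell 9.22-fold and at least 5.70-fold. Ccl5 moved the other way, by 1.82-fold. None of 18 chemokine receptors and egress genes rose and 9 fell, among them Cxcr4, 2.00-fold, and Gpr183, 1.89-fold.

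Cadherin genes rose. Of 14 cadherin and desmosome genes, 8 rose and none fell (median 0.74, or 0.86 centred), and 1 was called lower without day 9 replicate 2. The array holds 20 genes of this list, and those not tested stayed too dim. A gene dim on day 4 can pass the filter through the arrays where it is high, so the share that rose depends on the filter. Desmosomes are junctions known chiefly from epithelia. Dsc2 read 6.10 and 6.25, then 10.27 and 10.27 (17.1-fold higher, adjusted p = 1.99e-06). Dsg2 read 2.80 and 3.55, then 7.88 and 7.97 (at least 26.9-fold higher), and Dsg3 rose at least 6.59-fold. Cdh1, E-cadherin, which the inhibitory receptor KLRG1 binds, read 4.58 and 4.51, then 7.48 and 7.45 (7.56-fold higher). Cdh17 rose 2.66-fold and Dsp, desmoplakin, 2.08-fold. Itgb3 and Itgav, the chains of the vitronectin receptor, rose 3.62-fold and 2.63-fold. The integrins had no common direction, since of 16 tested 5 rose and 4 fell (median -0.13, or -0.01 centred). Those that fell included Itga2 (-0.64), Itga6 (-0.59) and Itgal (-0.40).

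Immediate-early and feedback genes, which answer fresh signals and then damp them, gave 16 higher and 3 lower of 37 (median 0.42, or 0.54 centred). Dusp4, a phosphatase of MAP kinases, read 5.04 and 4.92, then 6.59 and 6.58 (3.03-fold higher), and Tnfaip3 (A20), which restrains NF-kB, rose, with a difference of 1.58. Atf3 rose 2.62-fold, Btg1, which slows growth, 2.54-fold and Jun 1.71-fold. Between 12 and 21 rose with an array left out, and the 3 that fell were 0 without day 4 replicate 2 and 1 without day 4 replicate 1 or day 9 replicate 1.

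Interferon-stimulated genes fell more often than they rose, with 14 lower and 3 higher of 41 (median -0.33, or -0.22 centred). The number that fell was 8 without day 4 replicate 1 and 7 without day 4 replicate 2 or day 9 replicate 1. Oasl2, an antiviral gene, fell at least 5.99-fold from 5.53 and 5.68 on day 4 to below the array median on day 9, while on the KU55933 arrays it read 5.04 and 5.07. Of 17 sensors of nucleic acid and Ifi200 genes 10 fell and 1 rose, with 6 lower without day 4 replicate 1, day 4 replicate 2 or day 9 replicate 1. Cgas, the sensor of DNA in the cytosol, read 6.19 and 5.62, then 4.41 and 4.17 (3.07-fold lower). Ifi205 fell at least 12.1-fold and Ifi204 at least 4.73-fold. Among GBP and IRG GTPases, which attack intracellular pathogens, 7 of 13 fell and 4 rose. Iigp1 fell 7.88-fold, while Gbp11 rose 6.51-fold and Gbp8 2.86-fold, and 4 fell without day 4 replicate 1.

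Of 14 enzymes of DNA methylation and Polycomb, 8 fell and 2 rose, with 1 higher without any single day 4, day 9 or KU55933 array. Uhrf1 and Dnmt1, which maintain it, fell 12.2-fold and 3.05-fold, and Dnmt3a, which sets new marks, 1.69-fold. Ezh2 and Ezh1, alternative catalytic subunits of Polycomb, moved apart, since Ezh2 read 9.06 and 9.07, then 7.64 and 7.70 (2.62-fold lower) and Ezh1 7.77 and 7.87, then 9.04 and 9.05 (2.35-fold higher). Of 12 telomere genes 5 fell and none rose (1 without either day 0 array), among them Terf1, which coats telomeres, by 2.16-fold. Myc read 8.69 and 8.66, then 8.60 and 8.65 (adjusted p = 0.78). Its relative Mycn fell 2.42-fold, and Mnt and Mxi1, which oppose Myc, rose 2.03-fold and 2.01-fold. In the TGF-beta pathway 9 of 22 rose and 3 fell, with 4 or 5 higher and 1 lower without day 4 replicate 1, day 4 replicate 2 or day 9 replicate 1. Acvr2a, an activin receptor, rose 3.77-fold, and Tgfb1 differed by -0.05 (adjusted p = 0.798).

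None of the 16 NK cell markers lay below the array median on all 4 arrays. Of these 16 markers 2 rose (1 without day 4 replicate 2 or day 9 replicate 2) and 2 fell. The share of these markers that was called lay near the 27.8% of all genes, so the count does not set the list apart. The summed signal of the NK cell markers was 15.09 and 15.03 on the day 4 arrays and 14.95 and 14.94 on the day 9 arrays, on the log2 scale. Markers of other cell types moved between the days, although 20 of the 21 macrophage, 17 of the 18 neutrophil and 11 of the 14 B cell markers on the array reached the array median on at least 1 of the 4 arrays. Of 20 tested macrophage and monocyte markers 18 fell and 1 rose, and the summed signal went from 11.75 and 11.93 to 10.37 and 10.47. Lyz2, lysozyme of phagocytes, read 9.30 and 9.45, then 5.29 and 5.18 (17.6-fold lower), and Csf1r, which defines macrophages, 6.78 and 7.40, then 4.69 and 4.62 (5.41-fold lower).

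Of 17 neutrophil markers 13 fell and 1, Ctsg, rose. Without Ctsg their summed signal went from 10.14 and 10.11 to 7.95 and 8.10. Of 11 B cell markers 9 fell and none rose, and the sum went from 9.42 and 8.83 to 7.45 and 7.45. Cd79a, part of the B cell receptor, read 7.18 and 6.41, then 3.91 and 4.13 (6.85-fold lower). The class II genes H2-Aa and H2-Ab1, carried by antigen-presenting cells, fell 17.5-fold and 14.1-fold. They are on the list of dendritic cell markers, which had no common direction. Of its 12 tested genes 4 fell and 2 rose, with a median of -0.11, or 0.005 centred.

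Of 12 T cell markers 3 rose and 1 fell, with none lower without either day 4 array or day 9 replicate 1 and 2 lower without either day 0 array, and the sum went from 10.17 and 10.25 to 10.78 and 10.81. The T cell markers called were 33.3% of the list, against 27.8% of all genes. Cd3g, a chain of the T cell receptor complex, read 8.01 and 8.17, then 9.08 and 8.97 (1.91-fold higher). Cd28 rose 2.37-fold, and neither Cd8a (-0.49) nor Cd3e (0.42), both singled out after their values were seen, was called. Megakaryocyte and platelet markers fell in 3 of 7 cases. Other sums were higher on day 9. Of the stromal and endothelial markers 28.6% were called, near the share of all genes. Stromal and endothelial markers went from 9.57 and 9.64 to 10.54 and 10.48, with 1 higher and 1 lower of 7 tested (none lower without day 4 replicate 2), and 8 of the 15 on the array lay below the array median on all 4 arrays. Mast cell and basophil markers, Cma1 among them, went from 9.99 and 10.05 to 10.34 and 10.36, although 3 of 9 tested fell and only Cma1 rose. That list had 1 lower without day 4 replicate 1 and 3 higher without either day 0 array. Markers of other innate lymphoid cells went from 9.02 and 9.06 to 9.61 and 9.57, with 4 higher and 1 lower of 6 tested, and 1 or 2 higher without any single day 4 or day 9 array. The part of these sums in the rises of Cma1 and of the cadherin, desmosome and integrin genes was not tested. The sums that were lower on day 9 likewise move with the comparison. Their part was not tested in the falls of Chil3, Cybb, Cxcl9, Ifi205, Ly9, Slamf6, Cd2, Btla and the chemokine receptors. Nor was it tested in the cytokine and sensor lists or in the mitosis and S phase lists.

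**Figure D5:**
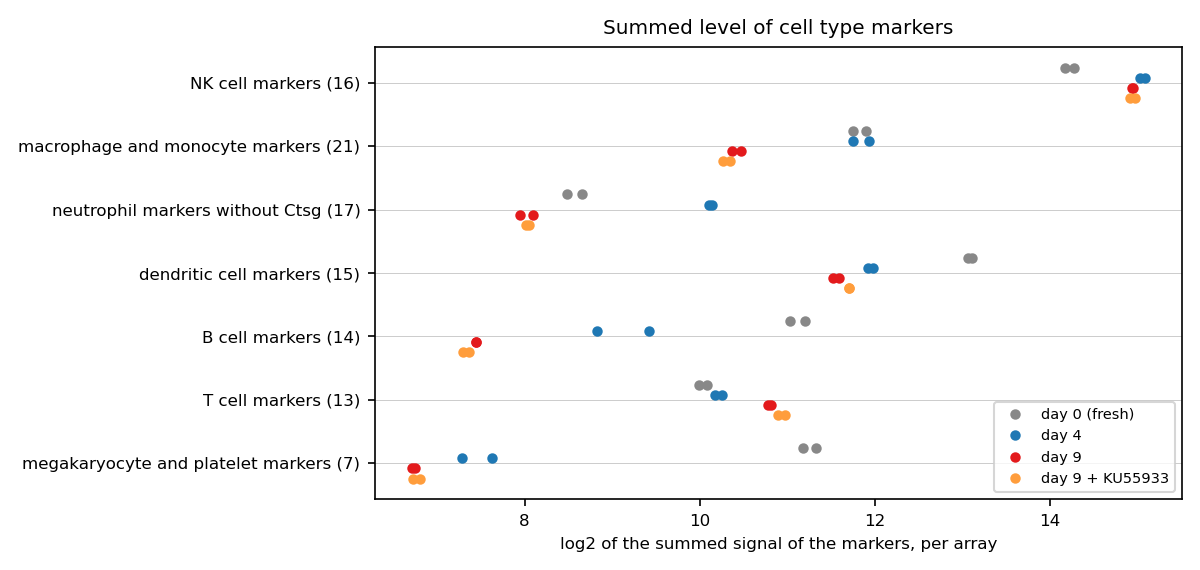
Log2 of the summed signal of each marker list on each array (points, coloured by group). The lists differ in length and probes, so only the arrays within a list can be compared. The macrophage and B cell markers are lower on the day 9 arrays than on the day 4 arrays, as are the neutrophil markers, drawn here without Ctsg.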

How the data were processed

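RNA of 8 samples, 2 for each of 4 groups, was hybridised to Affymetrix Mouse Gene 2.0 ST arrays. The deposited values are log2 signals that the authors made with RMA and the Transcriptome Analysis Console, per the submitters' processing notes. The software versions and the genome build are not given in these sources. Of 41345 transcript clusters, 23521 carry 1 gene symbol in the platform annotation, 1820 carry several and 16004 none. Clusters with several symbols or none were not used. Each of the 22180 genes was read at the cluster with the highest mean over the 8 arrays.

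Genes at or above the array median on at least 2 arrays were fitted with limma 3.58.1 in R 4.3.3, with 1 mean per group over all 8 arrays, empirical Bayes moderation (4 residual and 3.69 prior degrees of freedom) and Benjamini-Hochberg adjustment over 13998 genes. Tables and figures were made with Python 3.11.15, pandas 2.3.3 and matplotlib 3.10.9. The fit was tested on simulated data. No p-values were taken from the deposited files, and the authors' deposited averages were only set beside the array means. Promoters were matched by symbol, and 10924 of the 13998 genes had one.

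The comparison, its gene lists and its tests were chosen with earlier results of these data known. Genes are named by a rule. It takes the 15 largest rises and falls among called genes whose day 4 and day 9 arrays do not overlap. Predicted genes, antigen receptor segments, small RNAs and olfactory or vomeronasal genes are left out of that ranking. It adds up to 6 called members of each list with the lowest adjusted p, and a set of fixed genes. Exceptions are marked in the text. The alternatives tried changed the filter, the choice of cluster, the centring, the normalization, the variance model, the fold minimum, the replicate block and the arrays included. Same-numbered arrays did not deviate together between groups (correlations of -0.033 to 0.053), so the number is not treated as a pairing.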

Additional observations from a re-analysis of the deposited data

How the results depend on the processing

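Of the 352 named genes, 331 were called, 278 of these were called without each array in turn, and none of the 331 changed sign under any setting. Of the named genes that were not called, 5 changed sign on centring, Prf1, Gzmb, Il2rb, Tgfb1 and Myc. Against the 3898 genes called, a test against a 1.2-fold minimum called 2128 genes, 884 higher and 1244 lower. Asking for 2-fold as well left 1240, 468 higher and 772 lower. With an array left out, the lone array is assumed to vary like the other groups, and the count ranged from 2223 to 4933, with 935 to 2224 higher and 1259 to 2709 lower. The counts higher and lower were 964 and 1259 without day 4 replicate 1, 935 and 1306 without day 4 replicate 2, 1044 and 1330 without day 9 replicate 1, and 1118 and 1674 without day 9 replicate 2. Fewer samples entered each of these fits. Leaving out both day 0 arrays, a setting chosen after seeing the data, gave 4933. With the replicate number as a block 3635 genes were called, 1595 higher and 2040 lower, and of the named genes 6 lost their call. The other settings gave 3152 without the filter on dim genes, 3742 after quantile normalization and 5221 with array weights, all within 1.5 times the reported count. Centring left 4179 called and turned the balance, with 58.9% of calls higher against 43.9%. The authors' deposited averages, which list 7752 of the tested genes, had the same sign for all 3515 called genes among them and differed from the array means by at most 0.01. Signal near the array median limits what can be seen, since falls to that level are bounds.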
